A study of Mus musculus with 6 samples.

Results

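The genes described here make, hydroxylate, elongate, desaturate and break down the sphingolipids and fatty acids of myelin. The 34 members were given as a list by name, and all 34 were found among the 24062 gene symbols of the 6 count files. They were compared in optic nerve RNA between 3 mutant libraries, titled NF1 f/f, and 3 control libraries. Mutant animals carried PlpCreERT2;Nf1flox/flox. In that design a tamoxifen-inducible Cre recombinase under the Plp promoter, which is active in oligodendrocytes and also in Schwann cells, deletes both floxed copies of Nf1. Control library 1 came from an Nf1flox/flox animal and control libraries 2 and 3 from Nf1flox/+ animals, none of them with the Cre, so floxed Nf1 was present in both groups. Tamoxifen was given to all animals as adults, at more than 2 months of age, and the nerves were collected after 1 further month. Libraries are numbered by deposit order within a group, so equal numbers do not make a pair. Nothing in the labels says that each library is its own animal, and p-values therefore reflect variation among libraries that could be partly technical. Neurofibromin, the product of Nf1, lowers Ras activity, and the comparison asks how the transcripts of the nerve differ after its loss in mature oligodendrocytes.

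Myelin is unusually rich in galactosylceramide and its sulfated form, sulfatide, whose ceramides carry very long and often hydroxylated acyl chains. Oligodendrocytes build the sphingoid base from serine and palmitoyl-CoA, join it to a fatty acid with a ceramide synthase, and add galactose. Fatty acids come from local synthesis, fed in part by acetate released from the neuronal metabolite N-acetylaspartate, and lysosomal enzymes break the same lipids down as myelin turns over.

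Total counts ranged from 13555756 to 19012262 in the mutants and from 21307855 to 23662698 in the controls. Values are in CPM, counts scaled to a common library size with edgeR's TMM method. Mutant libraries 1 and 3 stood apart from the other 4. The summed level of 10 oligodendrocyte markers was 5677, 34895 and 4749 CPM in mutant libraries 1, 2 and 3, against 26491, 27646 and 26892 CPM in control libraries 1, 2 and 3. Such bulk samples cannot separate the number of oligodendrocytes, their RNA per cell and the share of other cells in the sample. The cause was not tested. The 8 neuron markers summed to 5947, 1648 and 4225 CPM in the mutants, against 511, 645 and 949 CPM in the controls. All 8 markers of striatal projection neurons, which are not a cell type of the nerve, passed the test upward, with sums of 1640.0, 1136 and 1172 CPM in the mutants, against 121, 107 and 133 CPM in the controls. Markers of vessel and sheath cells were also lower in the mutants, library 2 included. The 7 fibroblast markers summed to 252, 775 and 298 CPM in the mutants, against 1292, 1190.5 and 1161 CPM in the controls, and in all 7 every mutant was below every control, though 0 passed the test by edgeR. The 7 endothelial markers summed to 115, 216 and 118 CPM in the mutants, against 290.1, 318 and 306 CPM in the controls, and 1 passed the test downward. The 6 markers of pericytes and smooth muscle summed to 85.3, 175 and 81.01 CPM in the mutants, against 249, 235 and 262 CPM in the controls. Astrocyte markers summed to 6849, 6828 and 5728 CPM in the mutants, against 5499, 5651 and 5515 CPM in the controls. Much of this sum was Slc1a2, with 4768, 3211 and 3980 CPM in the mutants, against 2004, 1947 and 1812 CPM in the controls. Of the 8 astrocyte markers 4 had a negative log2 fold change, and their median was -0.25, so the sum does not give their common direction. Schwann cell markers, which matter because the Plp promoter is active in those cells, summed to 29.5, 40.2 and 38.7 CPM in the mutants, against 116, 81.96 and 53.1 CPM in the controls. Only 4 of these 6 markers had enough counts to be tested, 0 passed, and they did not share a direction. Adipocyte markers, a check for fat tissue around the nerve, summed to 8.19, 27.1 and 6.41 CPM in the mutants, against 42.8, 30.6 and 26.1 CPM in the controls, and the defining marker Adipoq was at 0 in 5 of the 6 libraries. Xist was at 2074, 2311 and 3608 CPM in the mutants, against 2.87, 3014 and 1.41 CPM in the controls, so the controls were mixed for this sex marker and the mutants were not. Nf1 itself was at 303, 226 and 432 CPM in the mutants, against 393, 399.7 and 336 CPM in the controls, with a log2 fold change of -0.23 (adjusted p 0.703 by edgeR, SE 0.28). Counts over all of its exons cannot show the loss of a few. The part that these differences play in the values below was not tested unless a value is given.

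Oligodendrocyte genes that assemble galactosylceramide were low in mutant libraries 1 and 3 and near the controls in mutant library 2, while Cers6, a synthase of shorter-chain ceramides, and Ugcg, which adds glucose to ceramide, were high in libraries 1 and 3. None of the 33 members tested passed an adjusted p of 0.05 by edgeR's quasi-likelihood test, where 3.29% of the 16315 genes tested did, 482 upward (2.95%) and 55 downward (0.337%). At an unadjusted p of 0.05 there were 5 members, Cers6 and Ugcg with higher and Srebf1, Elovl7 and Scd1 with lower values in the mutants, against 19.2% of all genes. DESeq2 called 1 member, Cers6, where it called 10.1% of all genes, and limma-voom called 0, where it called 3.10%, with 10 members at an unadjusted p under 0.05 (22.5% of all genes). Without a filter on low counts 1 member, Cers6, passed (4.07% of all genes), as it did at an adjusted p of 0.1 (6.58%). With size factors from DESeq2, with upper quartiles, with total counts, with a CPM filter and without the ribosomal gene Rn45s, edgeR called 0 members, against 3.41%, 3.23%, 3.54%, 3.50% and 3.22% of all genes. The median log2 fold change (mutant over control) of the 33 members was -0.40, against -0.0017 over all genes tested. Of the 33, 28 had a negative fold change, where 50.1% of all genes did. The groups did not overlap in 5 members, 4 with all mutants below all controls (11.5% of all genes) and 1 with all mutants above (12.5% of all genes), together 24.0% of all genes. With library sizes set to the oligodendrocyte marker counts, all genes shifted by a median of 1.88 and the member median was 1.32. The negative sign of the median thus holds relative to the whole library and not per myelin transcript. That scaling gave 2762 genes higher and 4 lower. Mutant library 2 did not share the reversal. Per 1000 marker counts it was below every control in most tested members, such as Scd2 (87.4, against 96.4 to 172 in the controls) and Fa2h (13.7, against 16.6 to 18.8). In others, such as Acly (5.43, against 3.63 to 5.92), it lay within the control range.

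**Figure D1:**
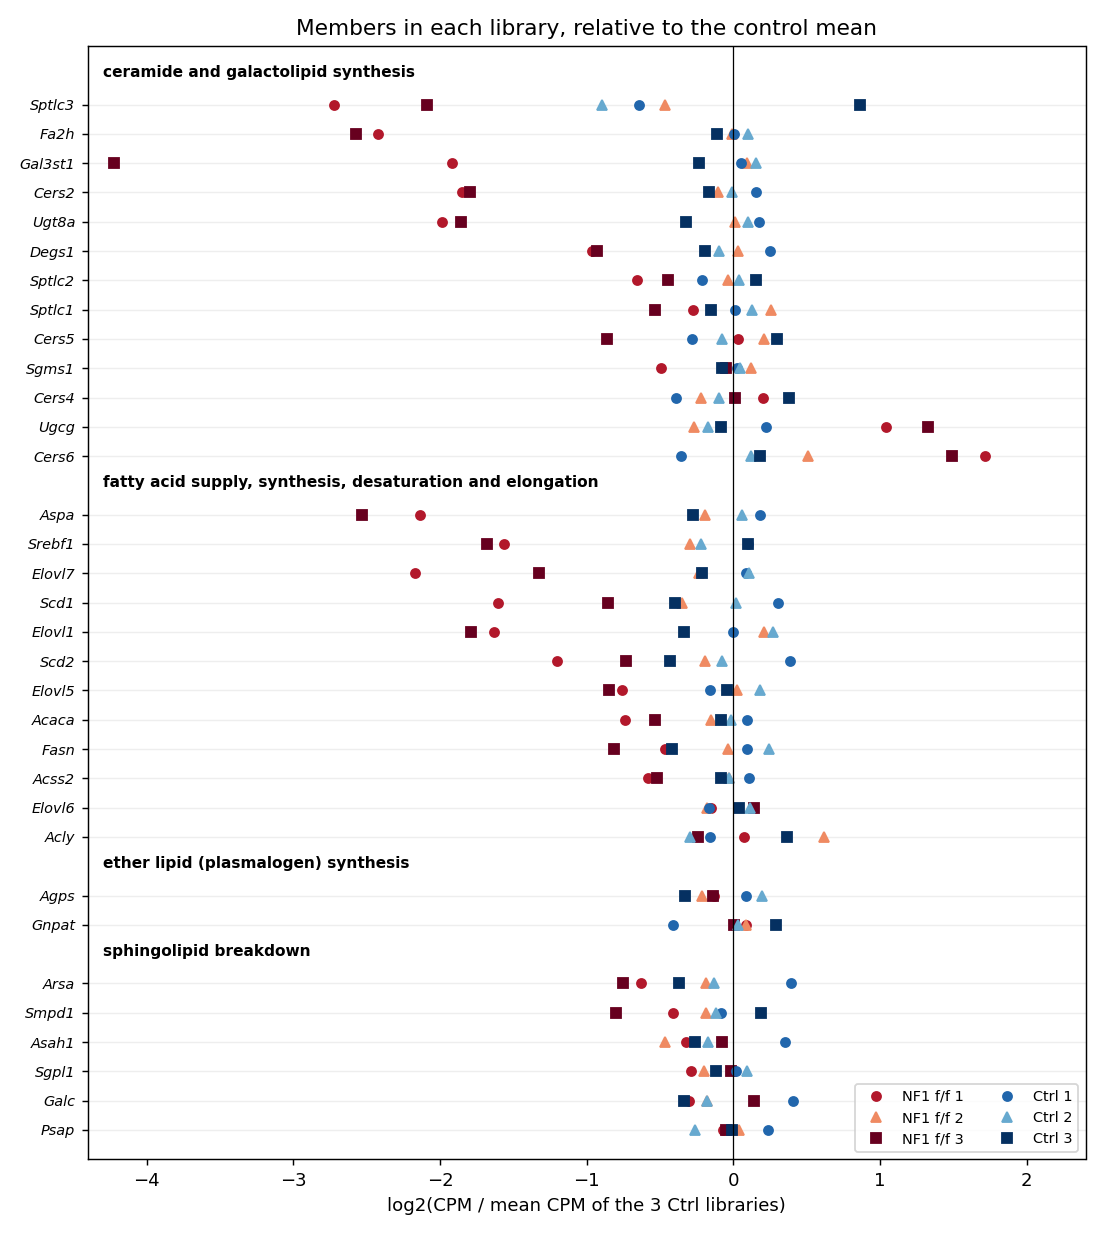
Log2 ratio of each member's CPM to the mean of the 3 control libraries (horizontal axis), for the 33 members tested, grouped by role, with 1 point per library. Mutant libraries 1 and 3 lie far left for Fa2h, Gal3st1, Cers2, Ugt8a and Aspa and right for Ugcg and Cers6, while mutant library 2 lies among or next to the controls for most members.

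The sphingoid base is made by serine palmitoyltransferase, whose catalytic partners are Sptlc1 with Sptlc2 or Sptlc3, and Degs1 then turns dihydroceramide into ceramide. Sptlc1 and Sptlc2 ranged from 22.8 to 39.4 CPM and from 54.3 to 83.5 CPM over the mutants, against 29.7 to 35.9 CPM and 74.1 to 95.3 CPM over the controls. Their log2 fold changes were -0.14 (adjusted p 0.814 by edgeR, SE 0.26) and -0.36 (adjusted p 0.451 by edgeR, SE 0.24). Sptlc3, a subunit that accepts other acyl chains, was near the limit of detection, with 5, 17 and 6 counts in mutant libraries 1, 2 and 3, against 23, 23 and 78 counts in control libraries 1, 2 and 3. In CPM these were 0.270, 1.28 and 0.418 CPM in the mutants, against 1.14, 0.953 and 3.23 CPM in the controls. Control library 3 alone was high, the groups overlapped, and the log2 fold change was -1.45 (adjusted p 0.367 by edgeR, SE 0.80). Degs1 had 111, 222 and 114 CPM in the mutants, against 258, 203 and 190.2 CPM in the controls, with mutant libraries 1 and 3 below every other library (log2 fold change -0.54, edgeR adjusted p 0.386, SE 0.31).

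Ceramide synthases differ in the acyl chain they prefer, and the pair with the strongest contrast was Cers2, which uses very long chains and is the main form of myelinating cells, and Cers6, which uses shorter ones. Cers6 (chromosome 2, 68861557 to 69111290, plus strand, 10 exons, mm10) had 113, 48.8 and 96.1 CPM in mutant libraries 1, 2 and 3, against 26.7, 37.2 and 38.9 CPM in control libraries 1, 2 and 3. It was higher in each mutant library than in any control, with means of 85.8 ± 33.1 CPM in mutants and 34.3 ± 6.59 CPM in controls (SD, n = 3 each). The log2 fold change of 1.32 (adjusted p 0.0692 by edgeR, SE 0.33) had the smallest p of the members and missed the threshold, while DESeq2 gave 1.34 (adjusted p 0.00576). Mutant library 2, the lowest mutant, stood 0.51 log2 units above the control mean, against 1.72 and 1.49 in mutant libraries 1 and 3. The 6 libraries have the same order by Cers6 as by the neuron marker sums given above. How many other genes share this order is not given, and the part of neurons in the Cers6 values was not tested.

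Cers2 (chromosome 3, 95315252 to 95323568, plus strand, 11 exons) had 84.3, 283 and 87.6 CPM in mutant libraries 1, 2 and 3, against 339, 302 and 271 CPM in control libraries 1, 2 and 3. Mutant libraries 1 and 3 were low and mutant library 2 lay inside the control range, so the groups overlapped. Its means were 152 ± 114 CPM in mutants and 304 ± 34.1 CPM in controls (SD, n = 3 each), and the log2 fold change was -1.003 (adjusted p 0.271 by edgeR, SE 0.45). Within a library, the ratio of Cers2 to Cers6 in CPM per kb of exon was 1.46, 11.3 and 1.78 in mutant libraries 1, 2 and 3, against 24.7, 15.8 and 13.6 in control libraries 1, 2 and 3. All mutant ratios lay below all control ratios (mean log2 difference -2.50). The ratios given here and below were chosen after their values were seen and carry no test. Cers4 and Cers5 showed no such split, with log2 fold changes of 0.01 (adjusted p 0.993 by edgeR, SE 0.26) and -0.14 (adjusted p 0.847 by edgeR, SE 0.31) and with overlapping groups. Cers1 had 0 counts in every library, but all of its 2724 exon bases (100%) also belong to Gdf1 or Upf1 in the counting annotation. Fragments that fall on 2 genes were not assigned under the counting options in the file headers, so the level of Cers1 was not measured.

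The promoters of both synthases are shown because these genes differed from the controls in opposite directions in mutant libraries 1 and 3, followed by those of Srebf1 and Aspa, which with them are the 4 members of smallest p that hold a searched motif. Sequences are RefSeq promoters on GRCm38.p6, 250 bases before to 50 bases after a transcript start, written 5′ to 3′ on the gene's strand. Capitals mark a CCAAT box (CCAAT, bound by NF-Y) or an E-box (CACGTG) on either strand, and no marked motifs overlap. For Srebf1 the entry shown, 1 of 3, belongs to the start inside the gene. Cers2 also has an entry at 95318580 to 95318879, not shown, which holds none of the searched motifs. The E-box lies 22 bases before the start in Cers6 and 129 bases before it in the Cers2 entry shown.
Cers6, chr2:68861191-68861490, plus strand: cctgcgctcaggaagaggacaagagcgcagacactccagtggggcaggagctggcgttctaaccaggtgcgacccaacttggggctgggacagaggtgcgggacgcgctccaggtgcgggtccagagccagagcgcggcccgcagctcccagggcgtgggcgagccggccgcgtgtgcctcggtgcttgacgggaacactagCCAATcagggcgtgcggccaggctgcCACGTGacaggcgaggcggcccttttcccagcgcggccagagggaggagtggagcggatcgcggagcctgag
Cers2, chr3:95314940-95315239, plus strand: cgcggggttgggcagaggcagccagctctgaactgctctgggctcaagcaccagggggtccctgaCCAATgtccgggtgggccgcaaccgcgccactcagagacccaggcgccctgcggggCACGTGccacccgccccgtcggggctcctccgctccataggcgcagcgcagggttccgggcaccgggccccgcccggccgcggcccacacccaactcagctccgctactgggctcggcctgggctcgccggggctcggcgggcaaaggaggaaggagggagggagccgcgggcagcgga
Srebf1, chr11:60210422-60210721, minus strand: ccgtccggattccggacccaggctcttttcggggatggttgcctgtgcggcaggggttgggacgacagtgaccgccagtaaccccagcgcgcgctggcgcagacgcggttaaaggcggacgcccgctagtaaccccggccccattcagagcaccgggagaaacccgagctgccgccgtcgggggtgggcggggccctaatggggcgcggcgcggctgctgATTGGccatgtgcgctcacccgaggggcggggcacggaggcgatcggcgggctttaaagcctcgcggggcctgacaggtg
Aspa, chr11:73324588-73324887, minus strand: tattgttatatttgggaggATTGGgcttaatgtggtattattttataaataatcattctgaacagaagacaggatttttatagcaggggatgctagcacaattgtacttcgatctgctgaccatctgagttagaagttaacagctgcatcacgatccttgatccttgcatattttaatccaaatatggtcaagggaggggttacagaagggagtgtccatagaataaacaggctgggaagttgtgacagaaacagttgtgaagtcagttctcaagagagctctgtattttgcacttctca

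Of the 34 members, 30 had at least 1 entry in the promoter table, 40 entries in all. Scd1, Scd2, Fa2h and Asah1 had no entry, so their promoters were not searched. A CCAAT box was found in 19 of the 40 (47.5%), against 37.4% of all 32851 promoters of the same length, and an E-box in 6 (15%), against 7.15%. The sterol regulatory element core TCACNCCAC, a site type bound by the SREBP factors, was found in 0 of the 40 entries, where 1.24% of all promoters held it on either strand. A match or its absence describes these letters in this window only.

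Galactolipid synthesis held some of the most abundant members. Fa2h, which hydroxylates the fatty acid before it enters ceramide, had 90.2, 479 and 81.3 CPM in mutant libraries 1, 2 and 3, against 483, 519 and 447 CPM in control libraries 1, 2 and 3 (chromosome 8, 111345138 to 111393821, minus strand, 7 exons). Mutant libraries 1 and 3 were far below the controls and mutant library 2 lay within their range. The log2 fold change over all libraries was -1.16 (adjusted p 0.351 by edgeR, SE 0.62), with means of 217 ± 227 CPM in mutants and 483 ± 35.9 CPM in controls (SD, n = 3 each). Ugt8a, the galactosyltransferase that makes galactosylceramide (chromosome 3, 125865343 to 125938550, minus strand, 6 exons), had 187, 746 and 205 CPM in mutant libraries 1, 2 and 3, against 836, 796 and 594 CPM in control libraries 1, 2 and 3. Its pattern was the same, low in mutant libraries 1 and 3 only, with a log2 fold change of -0.97 (adjusted p 0.346 by edgeR, SE 0.52). Gal3st1, the sulfotransferase that makes sulfatide, had 4.47, 18.05 and 0.906 CPM in the mutants, against 17.6, 18.9 and 14.4 CPM in the controls, from 13 to 239 counts in the mutants and 347 to 456 counts in the controls. Mutant library 3 was the lowest, -4.23 log2 units from the control mean, and the log2 fold change was -1.12 (adjusted p 0.474 by edgeR, SE 0.78).

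Other enzymes compete with Ugt8a for ceramide. Ugcg, glucosylceramide synthase and the entry to gangliosides (chromosome 4, 59189550 to 59222833, plus strand, 9 exons), had 122, 49.2 and 148 CPM in mutant libraries 1, 2 and 3, against 69.03, 52.6 and 55.9 CPM in control libraries 1, 2 and 3. It was high in mutant libraries 1 and 3, whereas mutant library 2 was below every control, and the log2 fold change was 0.85 (adjusted p 0.26 by edgeR, SE 0.37). The ratio of Ugt8a to Ugcg in CPM per kb was 1.58, 15.7 and 1.43 in mutant libraries 1, 2 and 3, against 12.5, 15.6 and 10.98 in control libraries 1, 2 and 3. Mutant library 2 had a ratio just above the highest control, so the groups overlapped. Sgms1, a sphingomyelin synthase, was nearly level, with 63.3, 96.7 and 86.2 CPM in the mutants, against 90.9, 91.9 and 84.6 CPM in the controls (log2 fold change -0.12, edgeR adjusted p 0.82, SE 0.23).

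**Figure D2:**
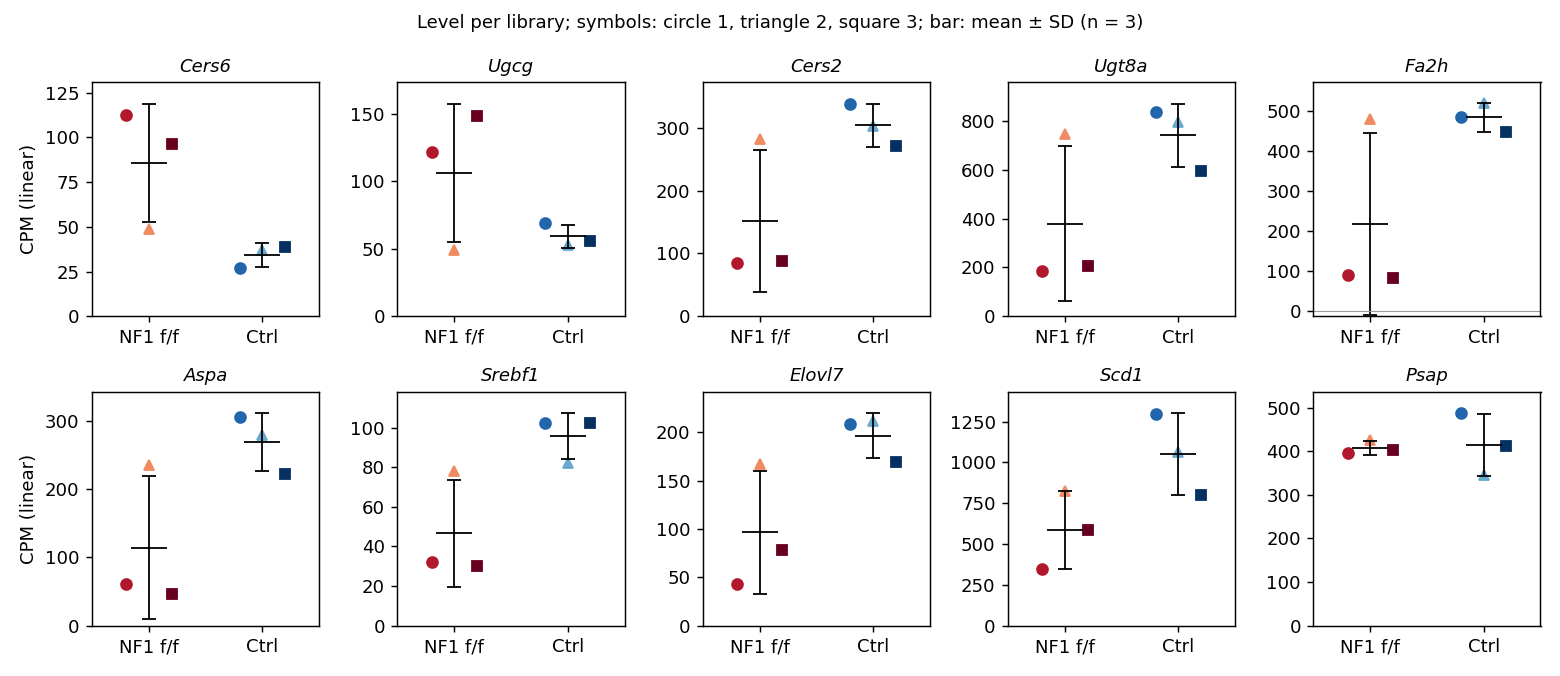
CPM of 10 members on a linear axis, with 1 point per library and the mean ± SD of 3 libraries per group, mutants left of controls. Cers6 and Ugcg are highest in mutant libraries 1 and 3, the other members apart from Psap are lowest there, and Psap lies at 396 to 426 CPM in the mutants.

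Srebf1 is a transcription factor that drives lipogenic genes. Srebf1 (chromosome 11, 60199089 to 60220604, minus strand, 19 exons) had 32.4, 78.00 and 29.9 CPM in mutant libraries 1, 2 and 3, against 102, 82.3 and 103 CPM in control libraries 1, 2 and 3. Every mutant library was below every control, by a narrow margin in mutant library 2, and the log2 fold change was -1.04 (adjusted p 0.177 by edgeR, SE 0.37). Aspa, the oligodendrocyte enzyme that releases acetate from N-acetylaspartate (chromosome 11, 73304988 to 73324637, minus strand, 6 exons), had 61.1, 235 and 46.6 CPM in mutant libraries 1, 2 and 3, against 306, 279.7 and 222 CPM in control libraries 1, 2 and 3. Its levels in mutant libraries 1 and 3 were the lowest, mutant library 2 overlapped the controls, and the log2 fold change was -1.24 (adjusted p 0.264 by edgeR, SE 0.55), with means of 114 ± 105 CPM in mutants and 269 ± 42.9 CPM in controls (SD, n = 3 each). Acss2 and Acly, which make acetyl-CoA from acetate and citrate, had log2 fold changes of -0.36 (adjusted p 0.443 by edgeR, SE 0.23) and 0.19 (adjusted p 0.763 by edgeR, SE 0.29). Acly was highest in mutant library 2, at 189.5 CPM, against 100.4 to 159 CPM in the controls. Acaca, the carboxylase that makes malonyl-CoA (chromosome 11, 84195438 to 84401651, plus strand, 54 exons), had 132, 198 and 152 CPM in mutant libraries 1, 2 and 3, against 235, 218 and 207 CPM in control libraries 1, 2 and 3. Its groups did not overlap, but the log2 fold change was small, -0.46 (adjusted p 0.328 by edgeR, SE 0.23). Fasn, which builds palmitate, had 185, 249 and 146 CPM in the mutants, against 273, 303 and 192 CPM in the controls with overlapping groups (log2 fold change -0.40, edgeR adjusted p 0.477, SE 0.28).

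The desaturases Scd1 and Scd2 both place the double bond of oleate, and Scd2 had the highest CPM per kb of all members in each library. Scd2 (chromosome 19, 44293676 to 44306862, plus strand, 6 exons) had 1514, 3050.0 and 2106 CPM in mutant libraries 1, 2 and 3, against 4565, 3312 and 2592 CPM in control libraries 1, 2 and 3. Mutant libraries 1 and 3 were below all controls and mutant library 2 was between them (log2 fold change -0.65, edgeR adjusted p 0.387, SE 0.38). Scd1 (chromosome 19, 44394450 to 44407709, minus strand, 6 exons) had 346, 827 and 584 CPM in mutant libraries 1, 2 and 3, against 1297, 1065 and 798 CPM in control libraries 1, 2 and 3, again with mutant library 2 inside the control range. Its log2 fold change was -0.85 (adjusted p 0.247 by edgeR, SE 0.36). The ratio of Scd2 to Scd1 in CPM per kb was 3.88, 3.27 and 3.20 in mutant libraries 1, 2 and 3, against 3.12, 2.76 and 2.88 in control libraries 1, 2 and 3, slightly higher in every mutant (mean log2 difference 0.24). Scd1 and Scd2 are close relatives, and 4.56% and 3.97% of their 50-base transcript words occur in other genes. A small part of their reads could thus be exchanged with other genes. The gene that shared the most words with Scd2 was Scd1, but for Scd1 it was not Scd2.

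Elongases differ in the chains they extend. Elovl7, which extends saturated long chains (chromosome 13, 108214404 to 108287107, plus strand, 8 exons), had 43.6, 167 and 78.6 CPM in mutant libraries 1, 2 and 3, against 208, 212 and 169 CPM in control libraries 1, 2 and 3. All mutants were below all controls, mutant library 2 by a narrow margin, and the log2 fold change was -1.03 (adjusted p 0.24 by edgeR, SE 0.43). Elovl1, which makes the very long saturated chains that Cers2 uses, had 18.01, 64.6 and 16.2 CPM in the mutants, against 55.9, 67.6 and 44.3 CPM in the controls. Mutant library 2 lay within the control range and the log2 fold change was -0.77 (adjusted p 0.445 by edgeR, SE 0.50). Elovl5, an elongase of polyunsaturated chains (chromosome 9, 77917365 to 77984519, plus strand, 8 exons), had 171, 294 and 160.3 CPM in mutant libraries 1, 2 and 3, against 259, 328 and 281 CPM in control libraries 1, 2 and 3, with a log2 fold change of -0.47 (adjusted p 0.413 by edgeR, SE 0.29). Elovl6, which turns palmitate into stearate, spanned 70.8 to 88.1 CPM in the mutants, against 71.3 to 86.7 CPM in the controls (log2 fold change -0.06, edgeR adjusted p 0.913, SE 0.21).

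Levels can be compared between genes only per length, as CPM per kb of exon. Among ceramide synthases, Cers2 had 41.8, 140.3 and 43.4 CPM per kb in the mutants, against 168, 149.9 and 134 CPM per kb in the controls. Cers6 had 28.6, 12.4 and 24.4 CPM per kb in the mutants, against 6.80, 9.47 and 9.89 CPM per kb in the controls. Cers2 was thus the most abundant of the 4 measured synthases in all 6 libraries, though closest to Cers5 in mutant library 1. Cers5 had 36.6, 41.4 and 19.7 CPM per kb in the mutants, against 29.5, 33.97 and 44.1 CPM per kb in the controls. Cers4 had 14.1, 10.5 and 12.3 CPM per kb in the mutants, against 9.36, 11.5 and 15.98 CPM per kb in the controls, so that Cers6 lay above Cers4 in all 3 mutants and below it in all 3 controls. Among elongases, Elovl5 was the highest in each library, with 61.5, 106 and 57.6 CPM per kb in the mutants, against 92.96, 118 and 101 CPM per kb in the controls. Elovl7 had 8.02, 30.7 and 14.5 CPM per kb in the mutants, against 38.3, 38.97 and 31.2 CPM per kb in the controls, above Elovl6 in the controls and below it in mutant libraries 1 and 3. Scd2 had 278, 559.5 and 386 CPM per kb in the mutants, against 837, 608 and 476 CPM per kb in the controls. Scd1 had 71.6, 171 and 121 CPM per kb in the mutants, against 268, 220.1 and 164.9 CPM per kb in the controls. It was below Psap in mutant libraries 1 and 3 and below Ugt8a and Fa2h in mutant library 2. Scd1 was also narrowly below Ugt8a in control libraries 2 and 3 (221.2 and 165.04 CPM per kb) and below Fa2h in control library 3 (179 CPM per kb). Sptlc2 exceeded Sptlc1 in every library, and Sptlc3 was at 0.0977 to 0.465 CPM per kb in the mutants, against 0.345 to 1.17 CPM per kb in the controls.

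**Figure D3:**
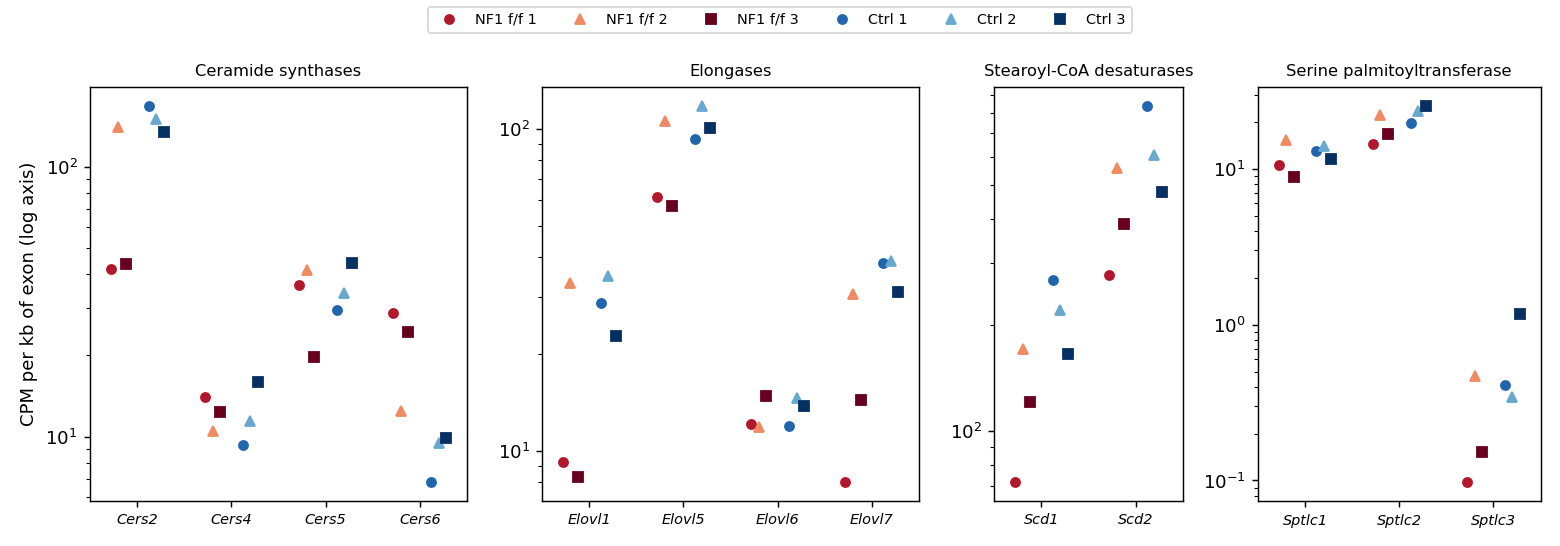
CPM per kb of exon on a log axis for members of 4 enzyme families, with mutant libraries left of controls for each gene. Cers2 and Cers6 approach each other in mutant libraries 1 and 3, and Elovl1 and Elovl7 are lowest there, while Cers4 and Elovl6 keep to a narrow band.

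Plasmalogens, the ether lipids of myelin, start in peroxisomes with Gnpat and Agps. Gnpat had 66.5, 66.5 and 62.7 CPM in the mutants, against 47.2, 63.9 and 76.7 CPM in the controls, and Agps had 142, 134 and 142 CPM in the mutants, against 165, 178 and 124 CPM in the controls. For both genes the groups overlapped, with log2 fold changes of 0.06 (adjusted p 0.919 by edgeR, SE 0.24) and -0.16 (adjusted p 0.74 by edgeR, SE 0.22).

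Genes of sphingolipid breakdown had the fold changes nearest to 0 after the ether lipid genes. Psap, the precursor of the saposin cofactors (chromosome 10, 60277628 to 60302600, plus strand, 16 exons), was the most abundant of them, with 396, 426 and 402 CPM in mutant libraries 1, 2 and 3, against 488, 346 and 412 CPM in control libraries 1, 2 and 3. The mutants lay inside the control range and the log2 fold change was -0.03 (adjusted p 0.969 by edgeR, SE 0.24). Its sign was positive without control library 1, at 0.12, so no direction is given. Smpd1, acid sphingomyelinase (chromosome 7, 105554360 to 105558389, plus strand, 6 exons), had 50.7, 59.4 and 38.7 CPM in mutant libraries 1, 2 and 3, against 63.6, 62.2 and 76.7 CPM in control libraries 1, 2 and 3. The groups were just apart, with a log2 fold change of -0.45 (adjusted p 0.348 by edgeR, SE 0.24). Galc and Arsa, which remove galactose and sulfate from the myelin lipids and whose loss causes leukodystrophies, had log2 fold changes of -0.10 (adjusted p 0.876 by edgeR, SE 0.27) and -0.50 (adjusted p 0.418 by edgeR, SE 0.31). Asah1, acid ceramidase, and Sgpl1, which ends the pathway by splitting phosphorylated sphingosine, had -0.28 (adjusted p 0.575 by edgeR, SE 0.24) and -0.17 (adjusted p 0.715 by edgeR, SE 0.21). Over the 6 breakdown genes the median log2 fold change was -0.22, against -0.36 over 13 ceramide and galactolipid genes and -0.56 over 12 fatty acid genes.

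Of the 6 fits that left out 1 library, the one without mutant library 2 called the most genes. In that fit of 2 mutants against 3 controls 15 of the 33 members passed by edgeR, 13 lower (13.8% of 16857 genes were called lower) and 2 higher (13.2% were called higher). The background was thus 27.0% in either direction, and the member median was -0.59. Mutant libraries 1 and 3, the mutants kept, were already low for galactolipid genes and oligodendrocyte markers, with mutant library 2 near the controls. Calls in this fit restate that pattern and are no separate support for it. Galactolipid genes fell, with log2 fold changes of -2.62 (adjusted p 0.0045 by edgeR, SE 0.54) for Gal3st1, -2.49 (adjusted p 2.99e-05 by edgeR, SE 0.21) for Fa2h and -1.92 (adjusted p 0.000189 by edgeR, SE 0.23) for Ugt8a. Aspa fell by 2.31 on the log2 scale, Cers2 by 1.82, Elovl1 by 1.70, Elovl7 by 1.68 and Srebf1 by 1.61, each with an edgeR adjusted p of at most 0.00121. Scd1, Scd2, Degs1, Elovl5 and Acaca fell by 0.63 to 1.17. Cers6 rose by 1.61 and Ugcg by 1.20 on that scale (edgeR adjusted p 0.00051 and 0.00186). Without mutant library 1 and without mutant library 3, edgeR called 0 members, against 0.977% and 1.19% of all genes, with 1 member at an unadjusted p under 0.05 in each fit (11.7% and 14.9% of all genes). Without control library 1, 2 or 3 it called 0 members, against 0.306%, 0.488% and 0.675% of all genes, with 1, 2 and 2 members at an unadjusted p under 0.05 (12.5%, 11.9% and 14.5% of all genes). None of the ether lipid or breakdown genes passed in any of these 6 fits.

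**Figure D4:**
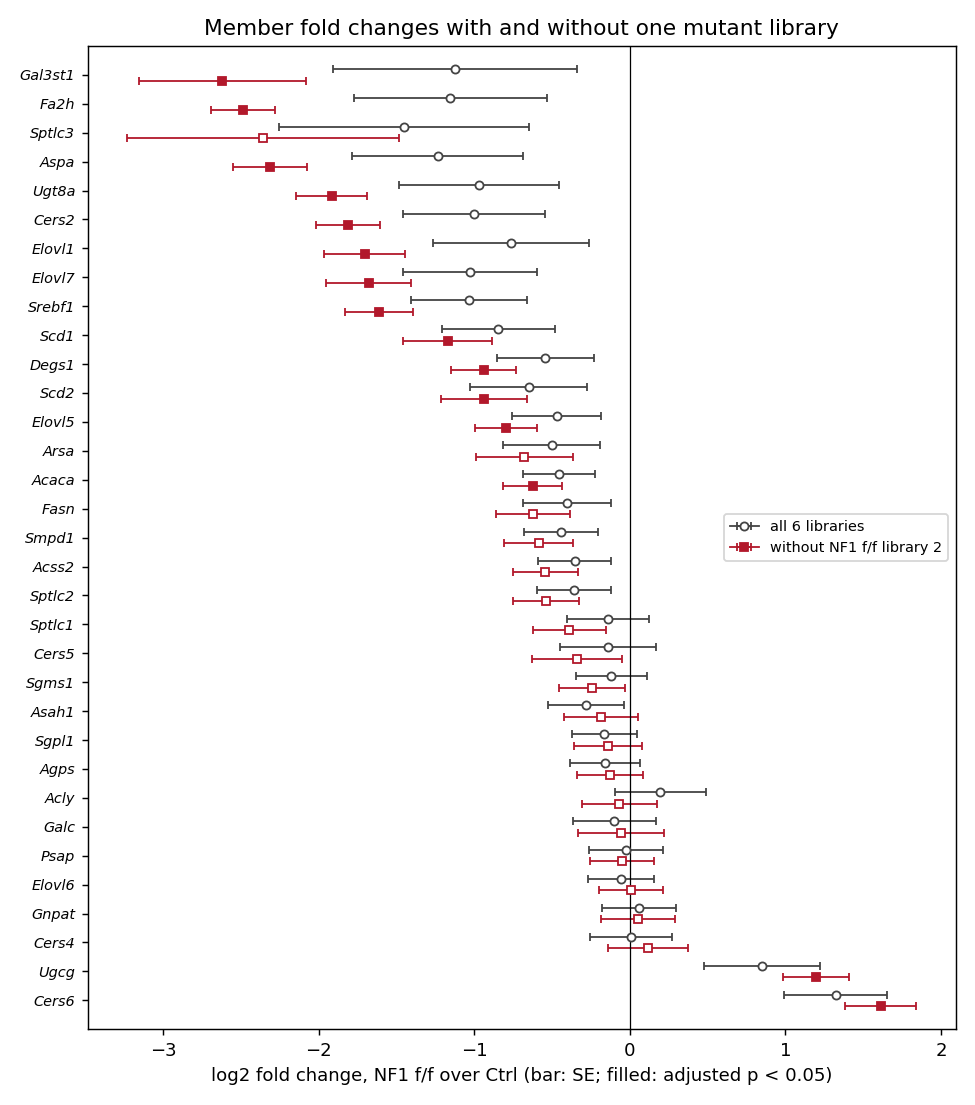
Log2 fold change of each tested member, mutant over control, with its SE, in all 6 libraries (circles) and without mutant library 2 (squares). Filled symbols have an adjusted p under 0.05 and number 0 among circles and 15 among squares, 2 of them right of zero.

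Relative to the oligodendrocyte markers of the same library, Fa2h, Aspa and Cers2 spanned a narrower range than Psap, Cers6 and Ugcg. Fa2h had 15.9, 13.7 and 17.1 counts per 1000 marker counts in mutant libraries 1, 2 and 3, against 18.2, 18.8 and 16.6 in control libraries 1, 2 and 3. Aspa had 10.8, 6.73 and 9.81 in the mutants, against 11.5, 10.1 and 8.25 in the controls, and Cers2 had 14.9, 8.11 and 18.5, against 12.8, 10.9 and 10.1. For these genes the highest library over the lowest was smaller per marker count than in CPM, at 1.37 against 6.38 for Fa2h. The same held for 9 of the 33 members, the others being Ugt8a, Gal3st1, Elovl1, Elovl7, Srebf1 and Sptlc3. In the other 24 members the span was wider per marker count, including Scd1 (5.19 against 3.75), Scd2 (5.07 against 3.01) and Degs1 (3.77 against 2.32), which were low in CPM in mutant libraries 1 and 3. Psap, by contrast, had 69.7, 12.2 and 84.6 in the mutants, against 18.4, 12.5 and 15.3 in the controls, and Cers6 had 19.8, 1.398 and 20.2, against 1.01, 1.35 and 1.45. In the fit with library sizes set to these marker counts, Cers6 and Ugcg were the 2 members called, with log2 fold changes of 3.45 and 3.04 (edgeR adjusted p 0.0126 and 0.0282), where 17.0% of all genes were called. Fa2h was at -0.20 (SE 0.95), Aspa at -0.13 (SE 0.95) and Cers2 at 0.29 (SE 0.95), with errors too wide to show equality. The groups overlapped in all 33 tested members on this scale, and mutant library 2 had a higher marker sum in CPM than any control.

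**Figure D5:**
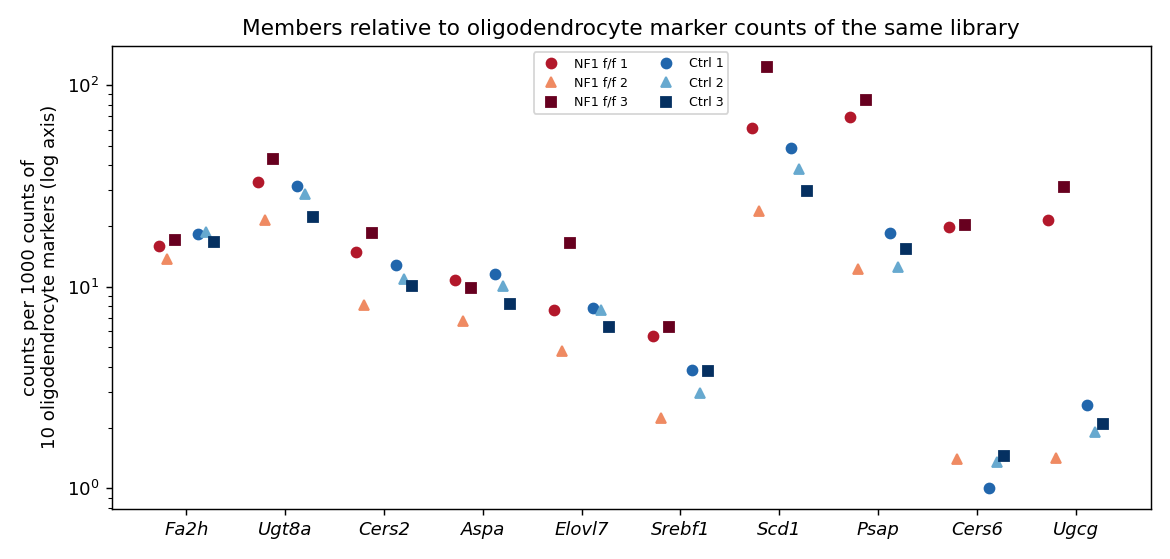
Counts of 10 members per 1000 counts of the 10 oligodendrocyte markers in the same library, on a log axis, mutants left of controls. Fa2h and Aspa keep within a narrow band over all 6 libraries, whereas Cers6 and Ugcg stand at 19.8 to 31.2 in mutant libraries 1 and 3.

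Of 75 other genes of these pathways, 73 were tested, 2 rose (2.95% of all genes were called higher) and 0 fell by edgeR (0.337% were called lower). At an unadjusted p under 0.05 there were 9 higher (11.2% of all genes) and 6 lower (8.02%). DESeq2 called 7 higher (7.13% of all genes) and 2 lower (2.95%). Nat8l, the neuronal enzyme that makes the N-acetylaspartate that Aspa splits, rose by 1.99 on the log2 scale (SE 0.33, edgeR adjusted p 0.0175). It had 90.6, 41.8 and 80.4 CPM in the mutants, against 22.2, 14.6 and 16.7 CPM in the controls, so all mutants were above all controls. The ratio of Aspa to Nat8l in CPM per kb was 2.87, 23.9 and 2.46 in mutant libraries 1, 2 and 3, against 58.6, 81.2 and 56.3 in control libraries 1, 2 and 3, lower in every mutant than in any control. Smpd3, a neutral sphingomyelinase, rose by 2.04 on the log2 scale (SE 0.36, edgeR adjusted p 0.0225), with 81.8, 49.5 and 59.2 CPM in the mutants, against 23.7, 12.3 and 10.4 CPM in the controls. The neuron and striatal marker sums given above were higher in the same mutant libraries, and their part in these values was not tested. Nat8l lost its call when any 1 of the 5 libraries other than mutant library 2 was left out, with adjusted p of 0.0620 to 0.119. Smpd3 lost its call without mutant library 1 or 3 or control library 2 or 3 (adjusted p 0.0626 to 0.141). With Xist as covariate their adjusted p was 0.325 and 0.345.

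Other sphingolipid genes with small p were B4galnt1, a ganglioside synthase, at 1.32 (adjusted p 0.0613 by edgeR, SE 0.32), B4galt6, a lactosylceramide synthase, at 1.09 (adjusted p 0.0762 by edgeR, SE 0.28), and Sphk1, a sphingosine kinase, at -1.43 (adjusted p 0.0802 by edgeR, SE 0.38). Over the 33 tested genes of that list, 20 had a negative log2 fold change and the median was -0.14. Among fatty acid genes, the elongases Elovl2 and Elovl4, which act on polyunsaturated and very long chains, were at 0.96 (adjusted p 0.0697 by edgeR, SE 0.24) and 1.36 (adjusted p 0.132 by edgeR, SE 0.43). All mutants were above all controls for Elovl2. For Elovl4, mutant library 2, at 10.9 CPM, lay within the control range of 8.12 to 12.3 CPM. Mlxipl, a carbohydrate-responsive factor of lipogenesis, was at -1.58 (adjusted p 0.0761 by edgeR, SE 0.41). Over the 34 tested genes of that list the median was -0.25. In the ether lipid list 0 of 6 genes passed, with a median of 0.01. Tmem189, the desaturase that completes plasmalogens, had 13.3, 33.98 and 10.2 CPM in the mutants, against 36.9, 40.4 and 25.8 CPM in the controls and a log2 fold change of -0.84 (adjusted p 0.335 by edgeR, SE 0.44). Far2, Far1 and Pex7, which supply fatty alcohol and import Agps into peroxisomes, were at 0.53, 0.15 and -0.06.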

How the data were processed

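Optic nerve RNA was amplified (NuGEN Ovation) before Nextera XT library construction, as the labels' protocols state. Each deposited file holds raw counts of fragments for every gene, not normalized. The authors made these counts with featureCounts 1.4.6-p4 from paired reads on exons of the UCSC mm10 gene set, unstranded, per the file headers. The submitters' processing notes name TopHat, mm10 and DESeq2. Gene lengths and mm10 positions come from the same deposited files, and lengths gave CPM per kb.

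Genes were tested with edgeR 4.0.16 (R 4.3.3) by its quasi-likelihood test after TMM scaling and filterByExpr with a minimum count of 10. No covariate was used, and p-values were adjusted by Benjamini-Hochberg over 16315 genes at 0.05. A log2 fold change divided by the root of its F statistic gave the SE. The procedure was tested on simulated data. All pairs of libraries differed beyond sampling noise (chi-square per degree of freedom at least 45.6). Alternatives were other scalings, DESeq2 1.42.0, limma-voom (limma 3.58.1), other filters, a threshold of 0.1, log2(CPM + 1) of Xist as covariate, Rn45s left out, and each library left out in turn. A fit of the libraries with high Xist alone was chosen after seeing the data. It sets 3 mutants against 1 control, library 2, which is assumed to vary like the mutants. The members and lists were chosen with earlier results of these data known. Values in every library are given for the 12 members with the smallest p and the 6 with the highest mean CPM, with more for enzyme families, and up to 4 genes are named from each other list. Further members with values in every library were chosen after their values were seen.

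Exons of Cers2, Srebf1, Acss2, Scd2, Elovl1 and Arsa overlap another gene over 1.12% to 5.59% of their bases, so part of their reads cannot be assigned. Of the 50-base words in GENCODE vM21 transcripts of Acaca, 30.4% occur in another gene, mostly Gm5182, and its value is uncertain to that extent. The same limit holds to a smaller extent for Arsa (15.8%), Cers4 (8.48%), Gnpat (6.37%) and Acss2 (6.13%).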

Additional observations from a re-analysis of the deposited data

How the results depend on the processing

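No paired analysis was possible because the labels give no replicate numbers. The count of 537 genes called was 2766 with library sizes from the oligodendrocyte markers, 1645 by DESeq2, 870 without a filter, 1073 at an adjusted p of 0.1, and 0 by edgeR with the Xist covariate (1295 at an unadjusted p under 0.05). It was also 0 (894 at an unadjusted p under 0.05) among the high Xist libraries alone, which hold 1 control, so that fit says nothing about stability. The count ranged from 51 to 4551 when 1 library was left out. The 0 members called became 2, 1, 1 and 1 under the first 4 of these settings, and 0 to 15 when 1 library was left out, the 15 without mutant library 2. The 2 other pathway genes called became 10, 9, 5 and 8 under the same 4 settings, 0 with Xist as covariate or among the high Xist libraries, and 0 to 28 when 1 library was left out. The member median of -0.40 ranged from -0.59 to -0.31 when 1 library was left out, was -0.38 with the Xist covariate, and reversed to 1.32 with library sizes from the oligodendrocyte markers. In that scaling 4 of the 33 tested members had a negative log2 fold change, against 28 in the main fit. Among those that changed sign were Cers2 (0.29), Ugt8a (0.24), Srebf1 (0.42), Acaca (1.32), Scd1 (0.83), Scd2 (1.04), Elovl5 (1.17), Elovl7 (0.41), Smpd1 (1.32) and Psap (1.85). The change of sign follows from the low marker counts of mutant libraries 1 and 3. Psap was 0.22 with the Xist covariate and 0.24 among the high Xist libraries with their single control, ranged from -0.13 to 0.12 when 1 library was left out, and the cause was not tested. Sptlc3, with 5 to 78 counts per library, and Cers1, which could not be counted, are limited by depth or annotation.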
